A study of Mus musculus with 6 samples.

Results

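Collagen chain genes were examined in cultured salivary glands of mouse embryos with and without TGF-β1. The members were all genes whose symbol in the platform annotation has the form Col, a number, a and a number, which gave 42 genes of the 19505 measured, each with 1 probe set. The controls were 3 arrays of untreated glands and the comparison group was 3 arrays of glands exposed to TGF-β1. In both groups the glands came from embryos at a stage written T13 and were kept in culture for 72 hours. The mouse strain, its genotype, which salivary gland was taken and how much TGF-β1 was added are not stated in the labels. The labels also leave unsaid whether replicates are separate cultures or animals, and the p-values then measure no more than the spread between these arrays, which may be technical.

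Collagens are trimers of chains wound into a triple helix, and they are grouped by what the trimers build. Fibrillar collagens form the banded fibrils of stroma, cartilage and bone, network collagens form the sheets of basement membranes, and FACIT collagens (fibril-associated collagens with interrupted triple helices) sit on the surface of fibrils. Transmembrane collagens span the cell membrane. In a branching gland the mesenchyme makes most of the fibrils, and the basement membrane around the epithelial buds is remodelled as clefts form. TGF-β1 is best known as an inducer of type I and type III collagen in fibroblasts, through Smad proteins.

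By class there were 11 fibrillar genes, 9 network genes, 8 FACIT genes, 4 transmembrane genes, 6 genes of the beaded filaments of type VI collagen, 2 multiplexin genes, and 2 genes put in no class here, Col26a1 and Col28a1. The list of classes held 45 collagen symbols, 10 of them FACIT, and those without a probe set of that symbol are not covered. Values are deposited RMA values on the log2 scale, where 1 unit is a 2-fold difference, and a value is compared only between arrays of the same gene.

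Control 3 stood apart from the other arrays, in the collagens as over all genes. Across the 42 members its Pearson correlation with the other arrays was 0.404 to 0.488, while the other 5 arrays correlated with each other at 0.896 to 0.979. Over all genes control 3 correlated with the others at 0.550 to 0.601. Its values were also less spread, with an interquartile range of 2.05 against 3.17 to 3.26 in the other arrays. It was the highest of the 6 arrays for 24 members (57.1%) and the lowest for 7 (16.7%). Over all genes those shares were 51.9% and 32.4%. The median difference of control 3 from the mean of controls 1 and 2 was 0.80 over the members and 0.45 over all genes. Gapdh, a glycolytic enzyme, was at 6.21 in control 3 and at 11.87 to 11.98 elsewhere. The groups were therefore compared with array weights, which count each array by how well it follows its group over all genes: control 3 had a weight of 0.0338 and TGF-β1 3 one of 0.398, against 1.65 to 4.52 for the rest. The unweighted comparison, the comparison without control 3 and that of controls 1 and 2 with TGF-β1 1 and 2 stand beside it.

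No collagen gene rose and 3 fell in the TGF-β1 glands with array weights. The 3 were Col18a1, a basement membrane collagen whose C-terminal end gives endostatin, Col26a1, a secreted collagen with an EMI domain, and Col6a6, a chain of type VI collagen. They made up 7.14% of the 42 members, and over all genes 3.44% fell and 3.45% rose (limma, Benjamini-Hochberg adjusted p under 0.05). The other 39 members did not pass, among them all chains of the fibrillar, network, FACIT and transmembrane classes. The median difference over the members, TGF-β1 minus control, was 0.06, against 0.01 over all genes. For 37 of the 42 members the 95% interval of the difference, each taken alone and with the weights as known, excluded a change of 1 log2 unit in either direction. Weights taken as known make these intervals too narrow, and the share of all genes with such intervals was not counted. The members' SEs ran from 0.14 to 0.24 with weights, and from 0.30 for Col6a3 to 0.87 for Col5a1 without.

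These calls rested on few arrays. Without weights 0 of the 42 members passed, nor did any of the 19505 genes (0%); at an unadjusted p under 0.05 limma's unweighted fit had 389 genes, or 1.99%, and 0 collagens. Without control 3 and TGF-β1 3, 0 members rose and 1 fell, Col18a1, against 1.14% and 1.45% of all genes. With array weights, leaving out control 1, control 2, control 3, TGF-β1 1 or TGF-β1 2 left 0 members passing, and leaving out TGF-β1 3 left Col18a1. Calls over all genes fell as well: in either direction 0% passed without control 1, 0% without control 2, 0.0410% without TGF-β1 1, 0.0615% without TGF-β1 2 and 1.92% without TGF-β1 3, while without control 3, 1.26% rose and 1.53% fell. With array weights, quantile normalization or median centring of the arrays also left 0 members passing, where 2.49% and 1.45% of all genes passed. Leaving out dim genes gave 14 of 37 members, 5 higher and 9 lower, close to the 33.5% of all genes that then passed.

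**Figure D1:**
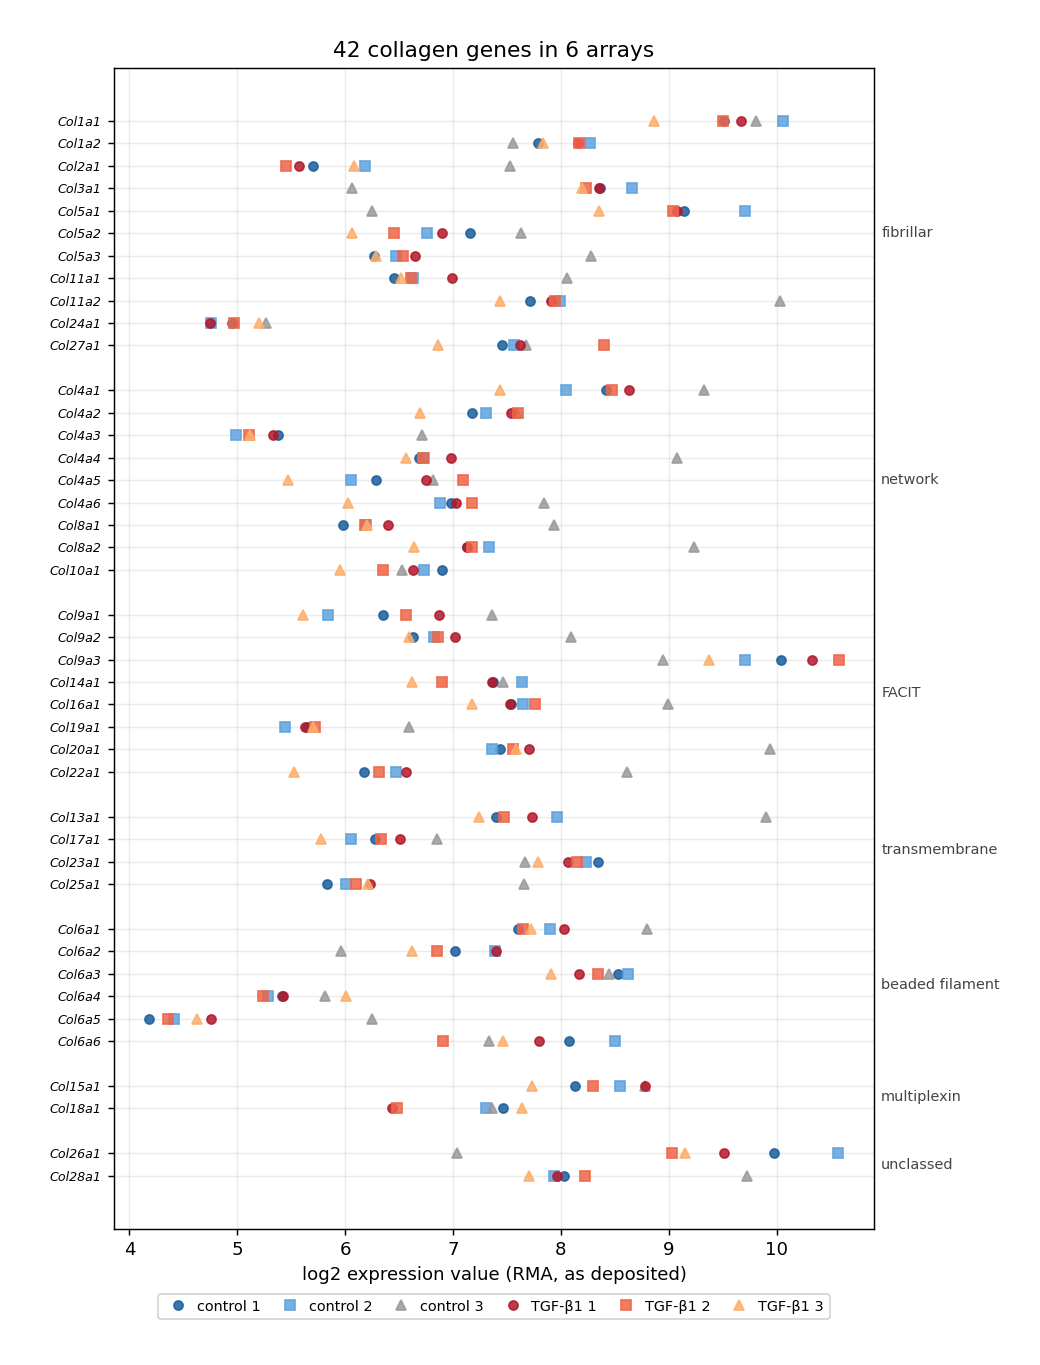
Deposited log2 value (horizontal axis) of each of the 42 collagen genes (rows, by class) in the 6 arrays, 1 point per array. Control 3 (grey triangles) lies away from the other arrays in most rows and is the highest array for 24 genes, and TGF-β1 3 (light orange triangles) is the lowest for 21. Over all genes control 3 is the highest for 51.9% and TGF-β1 3 the lowest for 22.1%.

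Col18a1 read 7.46, 7.31 and 7.36 in controls 1 to 3, and 6.43, 6.48 and 7.64 in TGF-β1 1 to 3. TGF-β1 1 and 2 lay below every control and TGF-β1 3 above every control, so the groups overlapped. With array weights Col18a1 fell by 0.83 ± 0.18 (SE; 95% interval -1.22 to -0.44; limma adjusted p = 0.0170). With neither control 3 nor TGF-β1 3 the difference was -0.92 ± 0.15 (limma adjusted p = 0.0301), and unweighted it was -0.52 ± 0.41 (limma adjusted p = 0.776). The group means were 7.37 ± 0.07 and 6.85 ± 0.68 (SD, n = 3 each). Col15a1, the other multiplexin, which lies at the border of basement membranes and stroma, read 8.13, 8.55 and 8.78 in the controls and 8.78, 8.30 and 7.73 with TGF-β1. Its weighted difference was 0.12 ± 0.20.

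Col18a1 has 2 start sites in the RefSeq promoter table used here (build GRCm38.p6), and mouse Col1a2 has 1. The 250 bases before each start are shown because Col18a1 passed under more of the alternatives than any other member, and because Col1a2 is the textbook Smad-responsive collagen gene. Capitals mark CAGAC or its reverse complement GTCTG, the short box bound by Smad3 and Smad4. The Col18a1 windows are chr10:77166531-77166780 and chr10:77113706-77113955, both on the minus strand, the second lying inside the gene; the Col1a2 window is chr6:4505368-4505617 on the plus strand.
Col18a1, outer start: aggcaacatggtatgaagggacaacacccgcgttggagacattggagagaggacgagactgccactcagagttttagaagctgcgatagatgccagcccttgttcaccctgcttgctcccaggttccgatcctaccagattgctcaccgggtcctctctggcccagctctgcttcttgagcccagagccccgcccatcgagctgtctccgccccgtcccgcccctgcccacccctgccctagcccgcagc
Col18a1, inner start: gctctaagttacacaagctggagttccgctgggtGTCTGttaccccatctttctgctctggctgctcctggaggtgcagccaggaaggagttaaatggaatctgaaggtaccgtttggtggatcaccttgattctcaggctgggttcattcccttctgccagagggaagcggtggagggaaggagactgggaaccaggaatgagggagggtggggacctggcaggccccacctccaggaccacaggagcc
Col1a2: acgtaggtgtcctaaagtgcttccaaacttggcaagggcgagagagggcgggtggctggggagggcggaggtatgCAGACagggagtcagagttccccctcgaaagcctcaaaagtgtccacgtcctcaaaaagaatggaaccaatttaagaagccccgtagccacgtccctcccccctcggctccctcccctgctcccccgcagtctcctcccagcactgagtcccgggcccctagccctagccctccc
The box was present once in the window of the inner Col18a1 start, once in that of Col1a2, and not in that of the outer Col18a1 start. Of 37 windows found for 34 of the 42 members, 43.2% held CAGAC on either strand, and so did 42.2% of all 32851 windows of this length. TATAAA was in 13.5% of the members' windows and 12.4% of all, and the GC box CCGCCC in 56.8% and 32.7%, both strands counted. A match describes the letters only. Which of the starts the Col18a1 probe set reads is not stated in the annotation.

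Col26a1 read 9.98, 10.57 and 7.04 in controls 1 to 3, and 9.51, 9.03 and 9.15 in TGF-β1 1 to 3. All 3 TGF-β1 arrays lay below controls 1 and 2 and above control 3. With array weights it fell by 1.07 ± 0.22 (SE; limma adjusted p = 0.0138), and without control 3 and TGF-β1 3 the difference was -1.01 ± 0.25 (limma adjusted p = 0.0886). Unweighted, the difference was 0.03 ± 0.87, and with array weights it was 0.52 without control 1 and 0.82 without control 2, so its direction rested on controls 1 and 2. The group means were 9.20 ± 1.89 and 9.23 ± 0.25 (SD, n = 3 each).

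Col6a6 read 8.08, 8.50 and 7.33 in controls 1 to 3, and 7.80, 6.91 and 7.46 in TGF-β1 1 to 3. Again the TGF-β1 arrays lay below controls 1 and 2, and control 3 lay among them. It fell by 0.90 ± 0.24 with array weights (SE; limma adjusted p = 0.0428); the difference was -0.94 ± 0.30 without control 3 and TGF-β1 3 (limma adjusted p = 0.163) and -0.58 ± 0.43 unweighted. Col6a6 is 1 of 4 alternative chains of type VI collagen that join Col6a1 and Col6a2 chains to make beaded filaments around cells. The most widely used of the 4, Col6a3, read 8.53, 8.62 and 8.45 in the controls and 8.17, 8.34 and 7.91 with TGF-β1. All TGF-β1 arrays of Col6a3 lay below all controls, control 3 included, with a weighted difference of -0.38 ± 0.14 that did not pass (limma adjusted p = 0.138). Col6a1 and Col6a2, the partner chains, differed by 0.06 ± 0.16 and -0.11 ± 0.20, and Col6a4 and Col6a5 by 0.07 ± 0.15 and 0.26 ± 0.17. Col6a5 lay under the lower quartile of every array but control 3, and the files give no measure of background.

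Col6a3 and Col14a1 were the 2 members whose groups did not overlap, both with lower values in the TGF-β1 arrays, and no member was higher in that way. Over all genes 5.78% were lower and 5.80% higher with no overlap. When control 3 is set aside, a comparison chosen after its values were seen, 8 members had all 3 TGF-β1 arrays below controls 1 and 2 and 2 had them above, against 12.3% and 12.8% of all genes. The 8 were Col3a1, Col5a1, Col6a3, Col6a6, Col10a1, Col14a1, Col23a1 and Col26a1, and the 2 were Col20a1 and Col25a1.

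**Figure D2:**
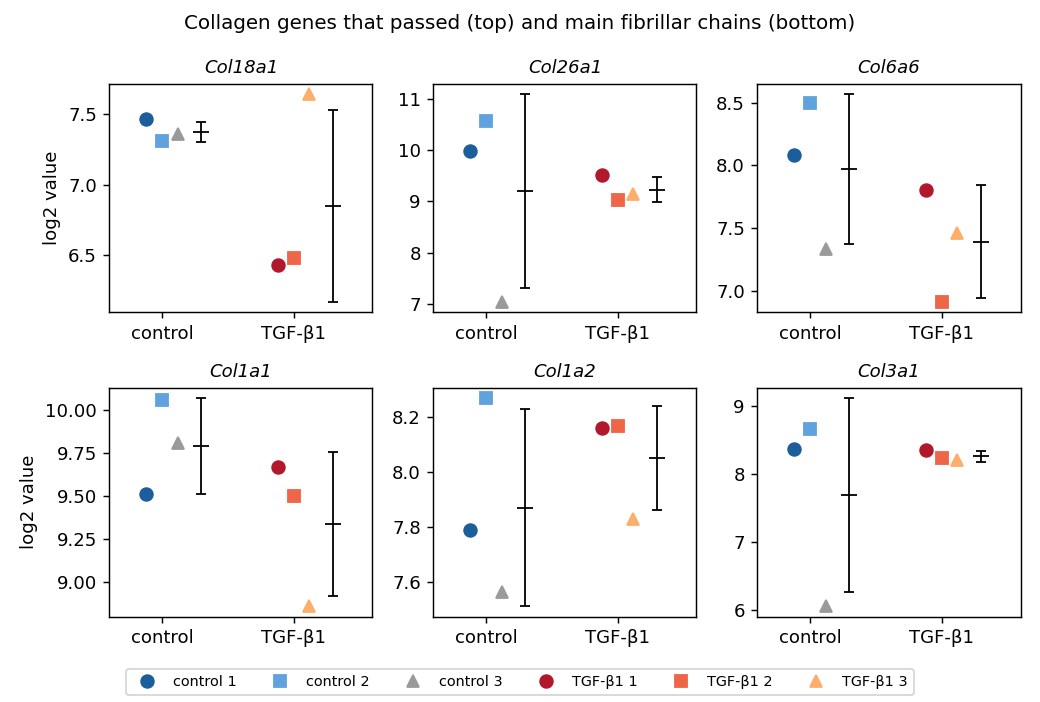
Deposited log2 values of the 3 genes that passed (top) and of 3 fibrillar chains (bottom) by array, with the group mean and SD (bars, n = 3). TGF-β1 3 lies above all controls for Col18a1, and control 3 lies below all TGF-β1 arrays for Col26a1 and Col3a1.

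Of the 11 fibrillar genes 0 rose and 0 fell, where 3.45% and 3.44% of all genes did, with a median weighted difference of -0.03. In a class this small, counts of 0 lie near those shares. Col1a1, the main chain of type I collagen, read 9.51, 10.06 and 9.81 in the controls and 9.67, 9.50 and 8.86 with TGF-β1. TGF-β1 3 was the lowest array and the other arrays of the 2 groups overlapped. The weighted difference was -0.35 ± 0.18 (limma adjusted p = 0.331), with a 95% interval from -0.75 to 0.06. Its partner in the type I trimer, Col1a2, read 7.79, 8.27 and 7.56 in the controls and 8.16, 8.17 and 7.83 with TGF-β1, a weighted difference of 0.00 ± 0.16 (95% interval -0.35 to 0.36). Col3a1, which forms type III collagen and shares fibrils with type I, read 8.36, 8.66 and 6.06 in the controls and 8.35, 8.23 and 8.20 with TGF-β1. Its 3 TGF-β1 arrays lay close together, below controls 1 and 2 and above control 3. The weighted difference was -0.27 ± 0.16 (95% interval -0.62 to 0.09) and the unweighted one, with control 3 at full weight, 0.57.

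Type V collagen starts type I fibrils and sets their width. Its main chain, Col5a1, read 9.14, 9.71 and 6.25 in the controls and 9.08, 9.04 and 8.35 with TGF-β1. The TGF-β1 arrays lay below controls 1 and 2, with a weighted difference of -0.51 ± 0.21 (limma adjusted p = 0.183), and the unweighted difference was 0.46. Col5a2 read 7.16, 6.76 and 7.63 in the controls and 6.90, 6.45 and 6.06 with TGF-β1, and differed by -0.17 ± 0.19. Col5a3, a rarer chain, read 6.27, 6.47 and 8.28 against 6.65, 6.54 and 6.29, and differed by 0.17 ± 0.15. None of the type V chains passed.

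Type II and type XI collagens form the fibrils of cartilage. Col2a1 read 5.70, 6.18 and 7.53 in the controls and 5.57, 5.45 and 6.08 with TGF-β1, a weighted difference of -0.50 ± 0.17 (limma adjusted p = 0.118). Col11a2 read 7.71, 7.99 and 10.03 in the controls and 7.91, 7.95 and 7.44 with TGF-β1, and Col11a1 read 6.45, 6.63 and 8.06 in the controls and 6.99, 6.61 and 6.52 with TGF-β1. Control 3 was the highest array for all 3 genes. Col11a2 differed by -0.03 ± 0.16 and Col11a1 by 0.25 ± 0.16. Col24a1 and Col27a1, later additions to the fibrillar family, differed by 0.03 ± 0.15 and 0.29 ± 0.23.

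Of the 9 network genes 0 rose and 0 fell, near the 3.45% and 3.44% of all genes, with a median weighted difference of 0.14. Col4a1 and Col4a2, which make the type IV collagen of nearly every basement membrane and are neighbours in the genome, both read lowest in TGF-β1 3. Col4a1 read 8.42, 8.05 and 9.33 in the controls and 8.63, 8.47 and 7.44 with TGF-β1, and Col4a2 read 7.18, 7.31 and 7.59 in the controls and 7.54, 7.60 and 6.69 with TGF-β1. TGF-β1 1 and 2 lay above controls 1 and 2 for both genes, and control 3 was the highest array for Col4a1 and next to the highest for Col4a2. They differed by 0.35 ± 0.19 and 0.24 ± 0.16 with array weights.

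The tissue-restricted type IV chains are Col4a3 and Col4a4, and Col4a5 and Col4a6, each a pair of genome neighbours. Col4a5 read 6.29, 6.05 and 6.81 in the controls and 6.75, 7.09 and 5.47 with TGF-β1. It had the largest difference of the 9 network genes, 0.67 ± 0.21 (95% interval 0.22 to 1.13), and did not pass (limma adjusted p = 0.0815, and 0.0805 without control 3 and TGF-β1 3). TGF-β1 1 and 2 were above controls 1 and 2, and TGF-β1 3 was the lowest array. Col4a6 read 6.98, 6.88 and 7.84 against 7.03, 7.18 and 6.03 and differed by 0.11 ± 0.17. Col4a3 differed by 0.14 ± 0.16 and Col4a4 by 0.14 ± 0.16. All 6 type IV chains thus had weighted differences above 0, but 1 of the 6, Col4a5, without weights, and Col4a3 turned to -0.08 after median centring of the arrays.

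The short-chain network collagens showed small differences. Col8a1 and Col8a2, of the meshwork under endothelia, differed by 0.17 ± 0.15 and -0.17 ± 0.16. Col8a2 read 7.13, 7.33 and 9.23 in the controls and 7.13, 7.18 and 6.64 with TGF-β1. Col10a1, the collagen of hypertrophic cartilage, differed by -0.27 ± 0.16.

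Of the 8 FACIT genes 0 rose and 0 fell, near the 3.45% and 3.44% of all genes, with a median weighted difference of 0.16. Type IX collagen coats cartilage fibrils, and its 3 chains had weighted differences above 0, which without weights held for Col9a3 alone, at 0.52. Col9a3 read 10.04, 9.71 and 8.95 in the controls and 10.33, 10.58 and 9.37 with TGF-β1. TGF-β1 1 and 2 were the highest of the 6 arrays, while TGF-β1 3 was below controls 1 and 2. It differed by 0.56 ± 0.19 (95% interval 0.16 to 0.97; limma adjusted p = 0.101). Col9a1 read 6.35, 5.84 and 7.36 in the controls and 6.87, 6.56 and 5.61 with TGF-β1, and had the largest upward difference of all members, 0.71 ± 0.21 (limma adjusted p = 0.0712; 0.200 without control 3 and TGF-β1 3). Here too TGF-β1 3 was the lowest array, and control 3 the highest, and the unweighted difference was -0.18. Col9a2 read 6.63, 6.82 and 8.09 against 7.02, 6.86 and 6.59 and differed by 0.17 ± 0.15.

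Col14a1, which binds type I fibrils, read 7.37, 7.64 and 7.46 in the controls and 7.36, 6.90 and 6.62 with TGF-β1. The groups did not overlap but nearly touched at control 1 and TGF-β1 1, and the difference was -0.40 ± 0.18 (limma adjusted p = 0.227). Col16a1 read 7.54, 7.65 and 8.99 against 7.53, 7.76 and 7.18, and Col20a1 read 7.44, 7.36 and 9.94 against 7.70, 7.56 and 7.58. Control 3 was the highest array for both, and they differed by -0.04 ± 0.15 and 0.25 ± 0.15. Col19a1 and Col22a1, the latter a collagen of tissue junctions such as that of muscle and tendon, differed by 0.16 ± 0.14 and 0.02 ± 0.19.

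Of the 4 transmembrane genes 0 rose and 0 fell, near the 3.45% and 3.44% of all genes, with a median weighted difference of 0.02. Col17a1, the collagen of hemidesmosomes that ties basal epithelial cells to the basement membrane, differed by 0.30 ± 0.16 (95% interval -0.05 to 0.64). Col13a1, found where cells meet matrix, read 7.40, 7.96 and 9.90 in the controls and 7.73, 7.47 and 7.24 with TGF-β1, and differed by -0.20 ± 0.19. Col23a1 read 8.34, 8.23 and 7.67 against 8.07, 8.15 and 7.79 and differed by -0.17 ± 0.14. Col25a1, known from neurons, read 5.83, 6.01 and 7.66 against 6.23, 6.10 and 6.21 and differed by 0.21 ± 0.15. Outside these classes, Col28a1, a collagen found near Schwann cells, differed by 0.06 ± 0.15.

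**Figure D3:**
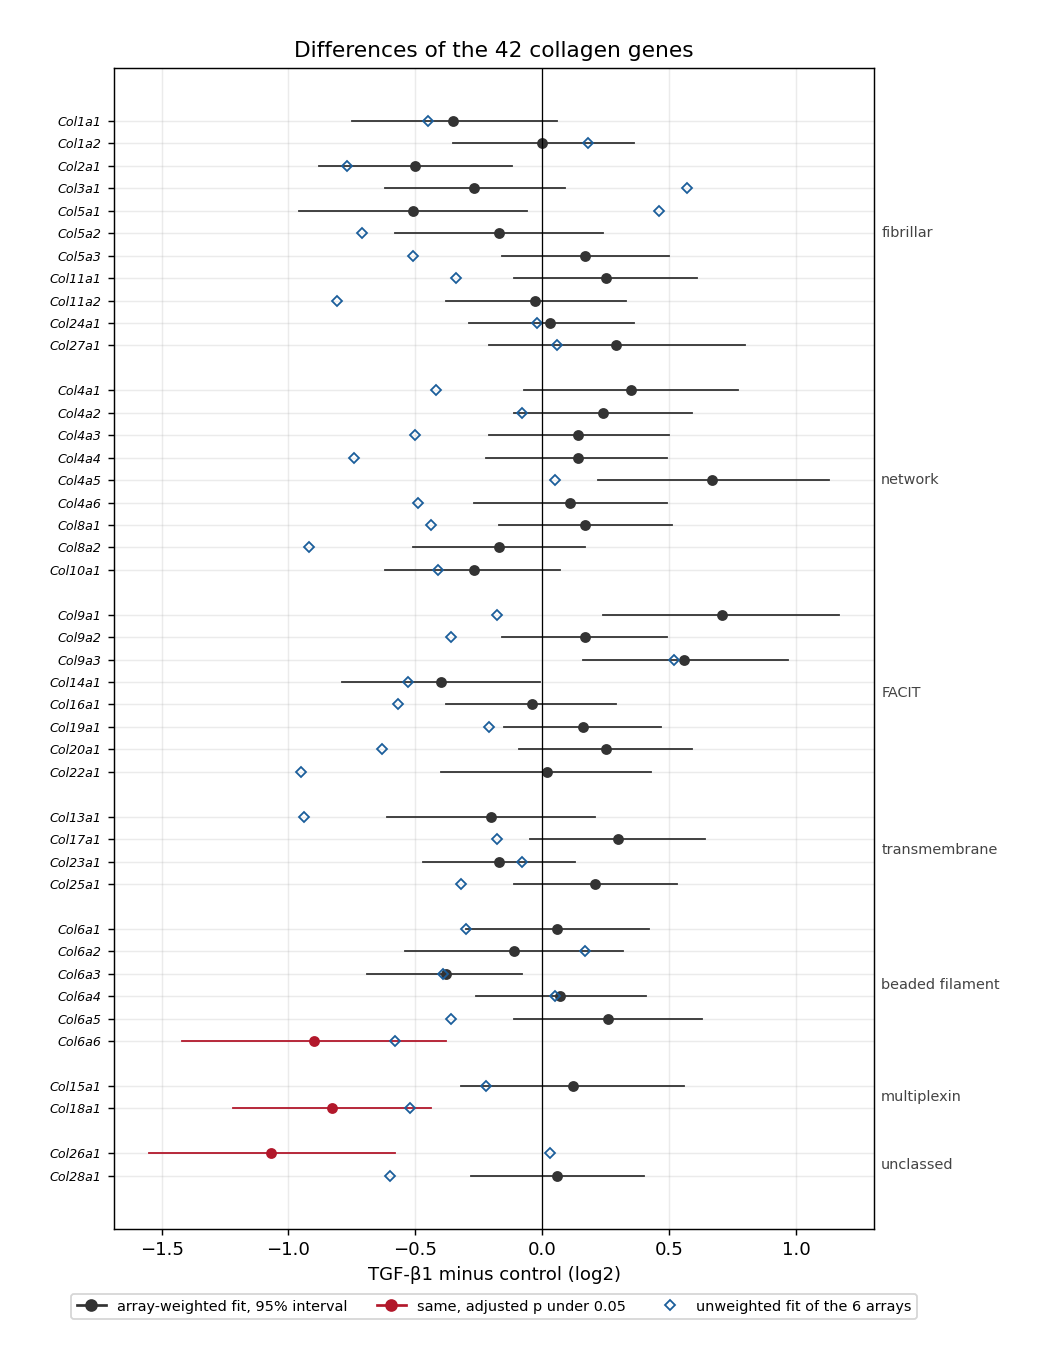
Difference between TGF-β1 and control arrays (log2, horizontal axis) for the 42 genes by class. Filled points with lines are the array-weighted values with 95% intervals, red where the gene passed, and open diamonds are the unweighted values. The 3 red genes lie between -1.07 and -0.83, and the diamonds lie below 0 for 33 of the 42 genes, against 17 of the filled points.

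The split of the signs depended on which arrays were used and how they were weighted. With array weights 25 members had a difference above 0 and 17 below, and over all genes 50.9% were above 0. Without weights 9 members were above 0 and 33 below, and the medians were -0.34 for the fibrillar class, -0.44 for the network class, -0.44 for the FACIT class and -0.25 for the transmembrane class, against -0.14 over all genes. With controls 1 and 2 against TGF-β1 1 and 2, 26 members were above 0 and the class medians were 0.00, 0.17, 0.17 and 0.08. Setting control 3 alone aside, without weights, gave 20 members above 0 and 22 below with a median of -0.04. With array weights, 14 were above 0 without TGF-β1 1 and 16 without TGF-β1 2.

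The TGF-β1 arrays also differed among themselves in the collagens. TGF-β1 3 lay below both TGF-β1 1 and TGF-β1 2 for 29 of the 42 members (69.0%) and above both for 4, while over all genes it lay below both for 43.1% and above both for 40.3%. Its median distance from the mean of the other 2 TGF-β1 arrays was -0.36 over the members and -0.02 over all genes. By class the medians were -0.54 for network, -0.49 for FACIT, -0.34 for fibrillar and -0.34 for transmembrane genes. The largest distances were -1.45 for Col4a5, -1.14 for Col27a1 and -1.12 for Col4a1. In the opposite direction stood Col18a1 at 1.18. Controls 1 and 2 differed less, with a median of 0.16 for control 2 minus control 1 over the members, and 0.28 over the fibrillar genes.

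**Figure D4:**
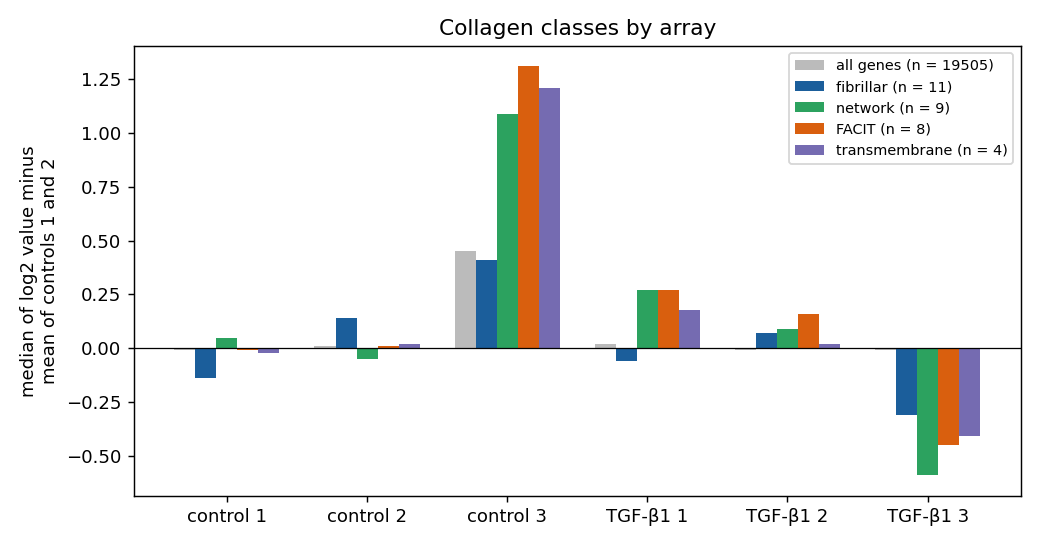
Distance of each array from the mean of controls 1 and 2 (log2, vertical axis), as the median over the genes of a class; grey bars are all 19505 genes. Control 3 stands at 1.09 to 1.31 for network, FACIT and transmembrane genes, and TGF-β1 3 at -0.59 to -0.31 for the 4 classes, while its median over all genes is -0.01.

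The genes that make, cut and bind collagen were set beside the chains, with array weights throughout. By that measure 3.45% of all genes rose and 3.44% fell. Of 22 measured genes of collagen biosynthesis 1 rose and 2 fell. P4ha1, a prolyl 4-hydroxylase subunit that stabilises the helix, fell by 0.81 ± 0.16, and P3h2, a prolyl 3-hydroxylase active on type IV collagen, by 0.77 ± 0.19. Both missed the threshold in the 2 against 2 comparison, with control 3 and TGF-β1 3 left out (limma adjusted p = 0.0559 and 0.103), and without weights they differed by -0.07 and 0.47. Colgalt2, which adds galactose to hydroxylysine, rose by 1.30 ± 0.20, but read 5.50 in TGF-β1 3 against 6.91 and 6.95 in the other TGF-β1 arrays and 5.50 to 6.47 in the controls. It passed with 2 against 2 arrays too (limma adjusted p = 0.0143). None of 13 genes of procollagen cleavage and crosslinking passed.

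Of 9 collagen receptors Ddr2, a receptor kinase for fibrillar collagen, fell by 0.91 ± 0.21 and Adgrg1, an adhesion receptor that binds type III collagen, rose by 1.02 ± 0.19. Both missed the threshold with 2 against 2 arrays (limma adjusted p = 0.0665 and 0.0739). Ddr2 read 6.30 in control 3 against 10.90 and 11.26 in the other controls, and its unweighted difference was 0.71. Of 9 collagenases and gelatinases 0 rose and 3 fell: Mmp2, a gelatinase, by 1.70 ± 0.20, Mmp14, its membrane-bound activator, by 1.11 ± 0.15, and Mmp16, a related membrane protease, by 0.90 ± 0.20. All 3 of them passed with control 3 and TGF-β1 3 left out as well. Of all genes 3.44% fell with array weights and 1.45% with those 2 arrays left out. Control 3 read 8.96, 8.69 and 6.84 for the 3, below every TGF-β1 array. Without weights they differed by -0.71, -0.29 and -0.18.

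Of 10 small proteoglycans that bind fibrils 4 rose and 1 fell, against 3.45% and 3.44% of all genes. Ogn, or osteoglycin, read 6.07, 6.07 and 4.77 in the controls and 7.51, 7.29 and 9.70 with TGF-β1, and rose by 1.50 ± 0.27. Prelp, which anchors basement membranes to stroma, rose by 0.85 ± 0.15, and Aspn, or asporin, rose by 2.19 ± 0.47. Omd was the fourth, and Kera, first known from the cornea, fell by 1.06 ± 0.26. Ogn was the 1 of these 5 that passed without control 3 and TGF-β1 3. Of 13 measured target genes of TGF-β, Acta2, smooth muscle actin, rose by 1.50 ± 0.35 and Fn1, fibronectin, fell by 0.62 ± 0.15; neither passed without those 2 arrays.

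Some markers of the cells that make collagens passed too, again with array weights. Over all genes 3.45% rose and 3.44% fell, and 1.14% and 1.45% with 2 against 2 arrays. In bulk tissue fewer cells of a type and less RNA per cell cannot be told apart. Of 9 mesenchyme and fibroblast markers 2 fell, Prrx1 by 1.03 ± 0.22 and Twist1 by 0.96 ± 0.20, and 0 rose. Without control 3 and TGF-β1 3 both missed the threshold (limma adjusted p = 0.0712 and 0.0716). Their unweighted differences were 0.76 and 0.03, and 6 of the 9 were above 0 without weights, against 2 with weights. The mean log2 value over the list ran from 6.80 to 8.42 among controls and from 7.72 to 8.39 among TGF-β1 arrays. Of 9 endothelial markers 1 fell, Kdr, the VEGF receptor, by 1.35 ± 0.19 (5.83 to 6.48 against 5.65 to 6.26 for the list). Of 12 cartilage markers 3 rose, Cnmd, or chondromodulin, by 3.35 ± 0.30, Ucma by 1.23 ± 0.17 and Sox9 by 0.68 ± 0.15 (5.99 to 6.95 against 6.44 to 6.47). Sox9 missed the threshold with 2 against 2 arrays (limma adjusted p = 0.0683), and whether its signal came from cartilage cells was not tested. Over the 12 markers 9 differences were above 0 and 3 below, the lowest that of Hapln1, -1.28 ± 0.38, which did not pass (limma adjusted p = 0.0676). The cartilage marker Comp lay under the lower quartile of every array but control 3, and Matn1 under that of every array. Of 12 gland epithelial markers 5 rose and 0 fell (7.45 to 9.20 against 9.88 to 10.95 for the list). The largest differences were those of the secretory genes Bpifa2, at 7.87 ± 0.57, and Smgc, at 4.86 ± 0.46. Both count in the list mean, and that mean without them was not computed. Bpifa2 read 4.65 to 7.68 in the controls and 12.99 to 13.79 with TGF-β1, and Smgc 4.60 to 6.25 and 8.87 to 11.44. Of the 12 differences 8 were above 0 and 4 below. Aqp5, a water channel of acinar cells, rose by 1.09 ± 0.13. The other passing markers were Sox10 and Epcam, of which Epcam missed the threshold with 2 against 2 arrays (limma adjusted p = 0.124). The keratins Krt5, Krt7, Krt14 and Krt19 had differences of -0.49, -0.37, -0.59 and -0.56 that did not pass. Upward differences that did not pass were those of the keratins Krt8 and Krt18, at 0.52 and 0.39, and of Cdh1, at 0.69. Hapln1, Sox10, Epcam, Cdh1 and the keratins were named after their values were seen. Of 8 myoepithelial and smooth muscle markers 2 rose, and 0 passed with 2 against 2 arrays. Of 7 Schwann and neuron markers 4 rose, and 1, Chrna3, passed with 2 against 2 arrays. None of the measured bone (5), tendon (5), skeletal muscle (8) and leukocyte (7) markers passed. The part of these cell types in the collagen values was not tested.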

How the data were processed

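Each of the 6 arrays has a deposited log2 value per probe set, made by the authors with RMA, per the submitters' processing notes, which give no version. They were used as deposited; neither labels nor files name a genome build. Of 22206 probe sets 19572 had 1 gene symbol in the platform annotation, 0 had several and 2634 were unnamed here; the probe set of highest mean stood for a gene, which gave 19505 genes. Groups come from the labels. The comparison used limma 3.58.1 in R 4.3.3 on all 6 arrays, with group as the only term, two-sided, array weights (arrayWeights by REML) and Benjamini-Hochberg adjustment over all genes; a gene rose or fell at an adjusted p under 0.05. The weights' estimation stopped before its tolerance was reached, and they are then taken as known, which makes p-values too small and intervals too narrow. The fits were tested on simulated data. Arrays carry no read depth, so their number limits the precision. Members, classes, lists and the array-weighted fit were chosen with earlier results of these data known. All members were eligible to be named. Values in every array were printed for members that passed, the 3 of highest mean in each of the 4 main classes, and partner chains; a few others were added. From each other list up to 3 passing genes per direction, smallest p first, could be named. Promoter windows are RefSeq's, build GRCm38.p6, matched by symbol.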

Additional observations from a re-analysis of the deposited data

How the results depend on the processing

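The number of collagen genes that passed was 3 with array weights and ranged from 0 to 14 over the alternatives. It was 0 without weights (0 of all genes), 0 with quantile normalization (486 genes in all), 0 with median centring (283 in all), 0 without control 3 and unweighted, 0 at an adjusted p under 0.01 (2.76% of all genes), 5 at an adjusted p under 0.10 (10.9% of all genes), 14 of 37 after a filter on dim genes (5 higher, 9 lower; over all genes 4354 of 13004, or 33.5%) and 0 to 1 with each array left out in turn, where 0 to 544 of all genes passed. It was 1, Col18a1, with 2 against 2 arrays, and 1 with those arrays centred on their medians, an alternative chosen after the data were seen. With gene by gene weights it was 2 (4.48% of all genes passed), with the mean of probe sets 3 (7.29%) and with a trended and robust prior 4 (7.45%). The cause of these shifts was not tested. Deviations from the group mean correlated between same-numbered arrays of the 2 groups at r = -0.0662, -0.0078 and -0.0501. The control mean includes control 3, which stood apart, so these values cannot tell whether the numbers pair the samples. With the replicate number as a block 9 members passed with array weights, where 12.8% of all genes did. Without weights the block left 0 members passing, where 0 of all genes passed. The median over the members was 0.06, against -0.38 without weights, -0.38 with the block and no weights, and -0.38 to 0.12 with arrays left out in turn. On those settings the fibrillar median was -0.34, -0.34 and -0.37 to 0.07, the network median -0.44, -0.44 and -0.39 to 0.17, and the FACIT median -0.44, -0.44 and -0.45 to 0.19. Col26a1 was the called gene that changed sign, at 0.03 without weights, 0.03 with the block and no weights and -0.94 to 0.82 with arrays left out. Col18a1 and Col6a6 kept their sign in all 18 alternatives that refit the model, and passed in 8 and 4 of them; Col26a1 passed in 5. Over these alternatives 15 members passed in at least 1. Of them 14 passed after the filter on dim genes, where 33.5% of all genes passed. The other, Col27a1, passed with the replicate block and array weights, where 12.8% of all genes did. Quantile normalization and median centring kept the median of all genes within 0.01 of the main value, and the unweighted fit moved it to -0.14.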
